A study of Mus musculus with 8 samples.

Results

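The 7 genes described here are the somatostatin gene Sst, the transcription factor gene Hhex, the retinol carrier gene Rbp4, the ghrelin receptor gene Ghsr, the fatty acid receptor gene Ffar4 and the peptide hormone genes Ppy and Pyy, which are hormones and markers of the delta and PP cells of mouse islets. They were taken by gene symbol from a table of exon read counts, and all 7 of 7 were found among its 24537 genes and passed the filter on low counts. The table covered 4 Wfs1KO and 4 WT islet samples, all from 12-week-old male mice given no treatment, purified by collagenase digestion and a density gradient. The product of Wfs1, wolframin, sits in the endoplasmic reticulum membrane and is mutated in Wolfram syndrome. Wfs1KO stands for its knockout, and the labels give the genotype without naming the allele or the strain.

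Delta cells are a small islet population that secretes somatostatin, which acts on neighbouring beta and alpha cells through receptors coupled to inhibitory G proteins and restrains the release of insulin and glucagon. HHEX is a homeodomain factor needed for delta cells to form and to make somatostatin. GHSR lets delta cells respond to ghrelin, and FFAR4, also called GPR120, is a receptor for long-chain fatty acids that is enriched in mouse delta cells. RBP4 carries retinol in plasma and is a delta cell marker in mouse islets. PP cells secrete pancreatic polypeptide, the product of Ppy, and are most frequent in the part of the pancreas that comes from the ventral bud. Peptide YY, the product of Pyy, belongs to the same family as pancreatic polypeptide and neuropeptide Y, and is made in islets by more than 1 endocrine cell type.

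Several of the 7 genes are neighbours on the mm10 genome. Sst (NM_009215) lies on chromosome 16 at 23889581 to 23890844, minus strand, and Ghsr (NM_177330) on chromosome 3 at 27371351 to 27378010, plus strand. Ppy (NM_008918) lies on chromosome 11 at 102099931 to 102101300 and Pyy (NM_001346771) at 102106676 to 102107832, both on the minus strand and 5375 bases apart with no other gene of the table between them. Hhex (NM_008245), Ffar4 (NM_181748) and Rbp4 (NM_001159487) lie on chromosome 19, Hhex at 37434841 to 37440731 (plus strand), Ffar4 at 38097079 to 38114263 (plus strand) and Rbp4 at 38116620 to 38125321 (minus strand). Ffar4 and Rbp4 are adjacent and point at each other across 2356 bases. No exon of the 7 genes overlaps an exon on the other strand in GENCODE M21, so unstranded counting gives them no reads of an annotated antisense partner. Among the list genes named below the exons of Prg4, Dpp4, Ghrl, Mboat4 and Pcsk2 do overlap such a gene, and their counts may include its reads, while genes named as neighbours or for a similar pattern were not checked.

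The promoters of the 3 hormone genes are shown because these genes carry nearly all of the reads discussed here. Each runs from 250 bases before to 50 bases after the transcription start of the RefSeq gene (GRCm38.p6, the same assembly as mm10) and is printed along the gene's strand. Capitals mark the cyclic AMP response element TGACGTCA, the TATA box TATAAA and the homeodomain core TAAT, searched on both strands.
Sst promoter, chr16:23890795-23891094, minus strand: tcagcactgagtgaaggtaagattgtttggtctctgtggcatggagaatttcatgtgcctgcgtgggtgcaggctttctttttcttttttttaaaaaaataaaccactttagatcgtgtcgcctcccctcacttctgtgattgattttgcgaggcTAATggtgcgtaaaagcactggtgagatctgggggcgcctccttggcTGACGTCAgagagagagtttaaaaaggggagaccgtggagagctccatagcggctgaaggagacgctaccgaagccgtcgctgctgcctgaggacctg
Ppy promoter, chr11:102101270-102101569, minus strand: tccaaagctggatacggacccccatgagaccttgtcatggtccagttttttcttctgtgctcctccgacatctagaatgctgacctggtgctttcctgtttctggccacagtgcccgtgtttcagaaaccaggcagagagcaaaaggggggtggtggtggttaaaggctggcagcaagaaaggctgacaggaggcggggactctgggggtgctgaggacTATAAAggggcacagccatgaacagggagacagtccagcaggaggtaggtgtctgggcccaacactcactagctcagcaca
Pyy promoter, chr11:102107783-102108082, minus strand: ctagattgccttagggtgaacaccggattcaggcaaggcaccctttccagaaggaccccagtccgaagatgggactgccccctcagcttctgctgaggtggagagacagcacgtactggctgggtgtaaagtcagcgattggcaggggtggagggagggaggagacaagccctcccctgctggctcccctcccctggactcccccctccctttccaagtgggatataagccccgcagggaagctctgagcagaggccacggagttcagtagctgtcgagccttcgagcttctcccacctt

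In the Sst promoter the full response element, a palindrome, stood from -48 to -41 of the start site, and 1 homeodomain core stood from -95 to -92. TGACGTCA was found in 1.79% of the 32851 mouse promoters of the same length, and in none of the other promoter windows of the 7 genes. In the Ppy promoter the exact letters TATAAA stood from -31 to -26, a motif held by 13.6% of all windows. None of the 3 exact motifs was found in the Pyy window. Variants of the TATA box, such as the tataag in the Pyy window, were not searched. TAAT was found in 58.0% of all windows, so its presence sets few promoters apart. These letter matches are descriptions of the windows and were not measured as bound sites.

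Exon counts per library ranged from 15810830 to 27057617. Wfs1 still had reads in every Wfs1KO library, at 101.1, 104.7, 124.6 and 98.9 CPM (exon counts scaled to a common library size by edgeR's TMM method) in Wfs1KO replicates 1 to 4 and 182, 156, 190.1 and 188 CPM in WT replicates 1 to 4. Its counts fell in Wfs1KO islets (log2 fold change -0.74, edgeR adjusted p = 5.06e-05), but a count over all exons does not show which exons the reads lie in. Along the first principal component (37.9% of variance) replicates 1 and 2 of both genotypes stood apart from replicates 3 and 4. The values below are therefore given library by library.

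The members spanned more than 3 orders of magnitude in level, in the same order of mean level in both genotypes. Per kilobase of exon, Ppy averaged 6095 CPM in Wfs1KO and 5267 CPM in WT islets, and ranked 8 of all 24537 genes. Sst averaged 4596 CPM per kb in Wfs1KO and 3506 in WT islets and ranked 11. Pyy averaged 3209 CPM per kb in Wfs1KO and 2575 in WT islets and ranked 14. These 3 hormone genes together took 0.769% ± 0.123 of unscaled exon counts in Wfs1KO and 0.580% ± 0.0579 in WT islets (SD, n = 4 each). In these shares the lowest Wfs1KO library, at 0.619%, lay just above the highest WT library, at 0.616%. That separation depends on the scaling. In CPM each of the 3 genes overlapped between genotypes. The summed CPM of all 7 genes overlapped too, at 6380 to 8973 across Wfs1KO and 5220 to 6655 across WT libraries.

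The markers were far less abundant than the hormones. Rbp4 averaged 77.4 CPM per kb in Wfs1KO and 65.1 in WT islets, Hhex 9.10 and 7.26, Ffar4 8.47 and 6.32, and Ghsr 1.53 and 1.15, with Wfs1KO given before WT for each gene. Hhex and Ffar4 were the neighbours in this order that overlapped in both genotypes. Hhex ran from 8.69 to 9.55 CPM per kb and Ffar4 from 7.02 to 9.19 across Wfs1KO libraries, and from 6.999 to 7.47 and from 5.28 to 7.08 across WT libraries. Ppy and Sst overlapped across Wfs1KO libraries (from 5150 to 7796 and from 3679 to 5250 CPM per kb) but not across WT libraries (from 3934 to 5926 and from 3204 to 3851). The other neighbouring genes in the order did not overlap in either genotype.

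**Figure D1:**
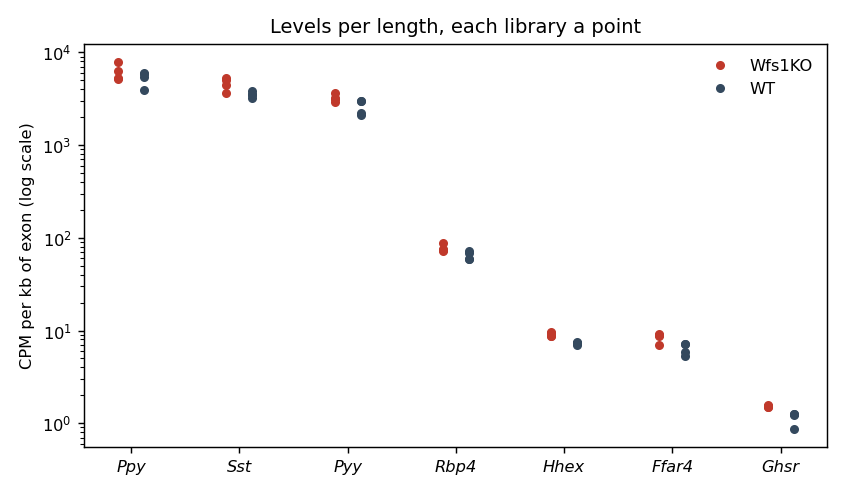
Level of each of the 7 genes in CPM per kilobase of exon (vertical log axis), with 1 point per library, Wfs1KO left of WT for each gene. The 3 hormone genes stand at 2123 or more in every library, Rbp4 between 59.0 and 88.9, and Hhex, Ffar4 and Ghsr below 10.

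The comparison of Wfs1KO with WT islets asks how loss of wolframin changes the RNA of these cells. All 7 genes had a log2 fold change above 0, as did 52.6% of tested genes, with folds between 1.16 and 1.34, and 4 passed edgeR's quasi-likelihood test with Benjamini-Hochberg adjustment over all genes. Those that rose were Sst, Hhex, Ghsr and Ffar4, and none fell. Over all 15733 tested genes 18.9% were called, 10.4% as higher and 8.49% as lower in Wfs1KO islets. The median log2 fold change of the 7 was 0.33, against 0.01 over all tested genes. In bulk islets, more cells of a type and more RNA per cell cannot be told apart, nor can either be told from fewer reads of another cell type.

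Sst, the hormone of delta cells, had 2651, 3124, 2973 and 2189 CPM in Wfs1KO replicates 1 to 4, against 2052, 1906, 2095 and 2292 CPM in WT replicates 1 to 4. Wfs1KO replicates 1, 2 and 3 lay above every WT library, and Wfs1KO replicate 4 lay below WT replicate 4. Sst rose 1.31-fold (log2 scale 0.39 with an SE of 0.10 and a 95% interval from 0.17 to 0.61, edgeR adjusted p = 0.0172), and all 4 Wfs1KO libraries exceeded the WT mean. Without Wfs1KO replicate 4 the log2 fold change was 0.47 (adjusted p = 0.00266), while the call was lost without Wfs1KO replicate 2 (0.0618), Wfs1KO replicate 3 (0.0517) or WT replicate 1 (0.0506).

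Hhex, the factor that specifies delta cells, had 16.7, 15.3, 16.8 and 15.4 CPM in Wfs1KO replicates 1 to 4, against 13.2, 12.4, 12.9 and 12.8 CPM in WT replicates 1 to 4. The genotypes did not overlap, and the spread within each was small. In the fit Hhex rose, its log2 fold change being 0.33 (SE 0.07, 95% interval 0.17 to 0.48, edgeR adjusted p = 0.00625). Its within-genotype SD on the log2 scale was 0.06, lower than in all but 6.90% of tested genes, at 191 to 477 counts per library. Counting noise alone adds spread at such counts, so an SD this small may be partly chance, which was not tested. Of the 4 called members Hhex was the only one whose call held without each of the 8 libraries in turn (adjusted p 0.00949 to 0.0252).

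Ghsr, the ghrelin receptor, had 7.003, 6.87, 6.69 and 6.58 CPM in Wfs1KO replicates 1 to 4, against 5.62, 5.54, 5.40 and 3.88 CPM in WT replicates 1 to 4. The genotypes did not overlap, and WT replicate 4 lay far below the other WT libraries. In the fit Ghsr rose, its log2 fold change being 0.41 (SE 0.13, 95% interval 0.12 to 0.70, edgeR adjusted p = 0.0467). This call sits at the threshold, since it was lost without any 1 of the 8 libraries (adjusted p 0.0518 to 0.115), and without WT replicate 4 the log2 fold change was 0.30. With the replicate number as a block the adjusted p was 0.0554. The gene had 79 to 200 counts per library, the fewest of the 7.

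Ffar4, the long-chain fatty acid receptor, had 12.2, 12.3, 12.8 and 9.75 CPM in Wfs1KO replicates 1 to 4, against 9.83, 7.33, 8.10 and 9.82 CPM in WT replicates 1 to 4. Wfs1KO replicate 4 lay among the WT libraries and the other 3 lay above all of them. In the fit Ffar4 rose, its log2 fold change being 0.42 (SE 0.12, 95% interval 0.16 to 0.68, edgeR adjusted p = 0.0260). The call was lost without Wfs1KO replicate 1, 2 or 3 or WT replicate 2 or 3 (adjusted p 0.0606 to 0.0722). It was also lost with an acinar score as a covariate (0.0749).

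Rbp4, the retinol carrier, had 89.8, 92.7, 109.7 and 90.2 CPM in Wfs1KO replicates 1 to 4, against 89.7, 72.9, 73.7 and 85.2 CPM in WT replicates 1 to 4. The genotypes did not overlap, but the lowest Wfs1KO library and the highest WT library, both replicate 1, differed by less than 1 CPM. The log2 fold change was 0.25 (SE 0.08, 95% interval 0.07 to 0.43, edgeR adjusted p = 0.0553), and the test was not passed. It was passed without WT replicate 1 (0.0300), by DESeq2 (0.0461) and with a filter of 1 CPM in 4 libraries (0.0497), and the authors' deposited table gives an adjusted p of 0.0455 for it. For Ghsr the authors' deposited table gives 0.0595, so that 4 of the 7 genes are under 0.05 in each source but with Rbp4 in place of Ghsr in that table.

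Ppy, the hormone of PP cells, had 2953, 3703, 2478 and 2446 CPM in Wfs1KO replicates 1 to 4, against 1869, 2772, 2815 and 2552 CPM in WT replicates 1 to 4. The genotypes overlapped widely, with Wfs1KO replicates 3 and 4 below 3 of the 4 WT libraries. The log2 fold change was 0.21 (SE 0.16, 95% interval -0.15 to 0.57, edgeR adjusted p = 0.422). It had 35557 to 84344 counts per library and the widest within-genotype spread of the 7 genes (SD 0.28 on the log2 scale).

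Pyy had 1723, 2019, 1773 and 1622 CPM in Wfs1KO replicates 1 to 4, against 1180.3, 1230.2, 1645 and 1672 CPM in WT replicates 1 to 4. WT replicates 1 and 2 were low and WT replicates 3 and 4 reached the level of the lowest Wfs1KO library. The log2 fold change was 0.32 (SE 0.12, 95% interval 0.06 to 0.58, edgeR adjusted p = 0.0883), and the test was passed without WT replicate 4 (0.0370). The 95% intervals of all 7 genes shared the range from 0.17 to 0.43 on the log2 fold change scale. Differences between the members were not tested.

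**Figure D2:**
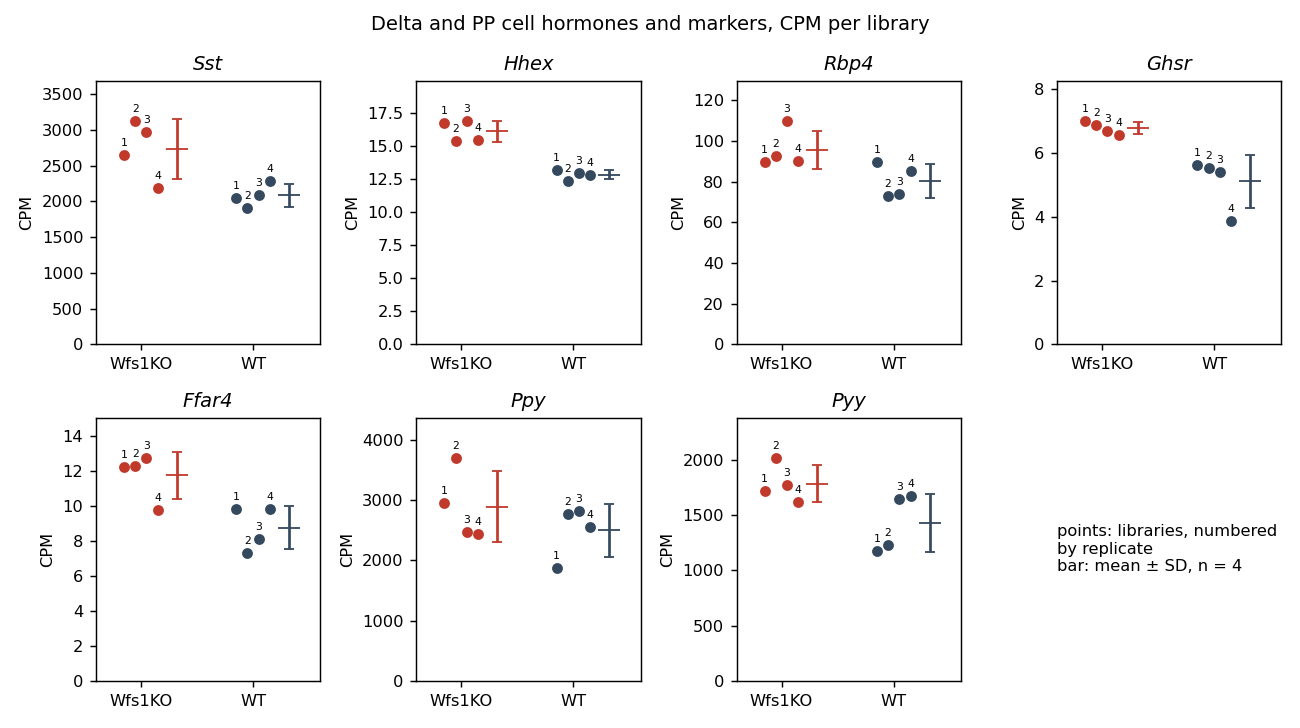
CPM of each gene in each library (vertical axes start at 0), Wfs1KO left of WT, points numbered by replicate, bars mean ± SD with n = 4. Hhex, Rbp4 and Ghsr do not overlap between genotypes, while Wfs1KO replicate 4 is the lowest Wfs1KO library for Sst, Ffar4, Ghsr, Ppy and Pyy.

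Groups without overlap were found in 3 of the 7 genes, all higher in Wfs1KO islets, against 22.6% of all tested genes without overlap, that is 12.3% with every Wfs1KO library above and 10.3% with every Wfs1KO library below every WT library. Of the 7 genes 6 had an unadjusted p under 0.05, against 31.1% of tested genes. Without single libraries the number of the 7 called ranged from 1 (without Wfs1KO replicate 2 or 3) to 4 (without WT replicate 4), and it was 2 without Wfs1KO replicate 1, WT replicate 2 or WT replicate 3. Fewer genes were called in all in these fits too, at 2387 to 2734, against 2970 in the main fit. With the replicate number as a block 3 of the 7 and 2932 genes in all were called. With replicates 1 and 2 against 3 and 4 as a block 4 of the 7 and 3417 genes in all were called.

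Ratios of counts within a library, which do not depend on how libraries are scaled, set the delta and PP hormones against the hormones of the other endocrine cells. The ratio of Sst to the insulin genes Ins1 and Ins2 was 0.0272, 0.0293, 0.0317 and 0.0259 in Wfs1KO replicates 1 to 4, against 0.0140, 0.0129, 0.0151 and 0.0126 in WT replicates 1 to 4. The Wfs1KO libraries all lay above the WT libraries, by 2.09-fold on average (log2 difference 1.06, higher in 4 of 4, exact two-sided permutation p = 0.0286, the smallest that 4 against 4 can give, and 0.114 adjusted over the 4 ratios computed). Paired by replicate number, the exact sign-flip p was 0.125, the smallest that 4 pairs can give. Both terms of this ratio moved, as Ins2 fell by 0.79 on the log2 scale and Ins1 by 0.41.

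Against glucagon, the hormone of alpha cells, Sst did not part the genotypes. The ratio of Sst to Gcg was 0.147, 0.179, 0.121 and 0.118 in Wfs1KO replicates 1 to 4, against 0.122, 0.131, 0.123 and 0.118 in WT replicates 1 to 4. Only Wfs1KO replicates 1 and 2 exceeded all WT libraries (log2 difference 0.17, exact two-sided permutation p = 0.371, adjusted 0.486). Gcg itself stood at a log2 fold change of 0.22 (SE 0.12, edgeR adjusted p = 0.243). Of 8 tested alpha cell markers 1 rose, 1 fell and 6 were not called, with a median log2 fold change of 0.09. Over all tested genes 10.4% rose and 8.49% fell.

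The hormones of delta and PP cells also kept no fixed proportion between libraries. The ratio of Ppy to Sst counts was 1.11, 1.19, 0.833 and 1.12 in Wfs1KO replicates 1 to 4, against 0.911, 1.45, 1.34 and 1.11 in WT replicates 1 to 4 (log2 difference -0.17, exact two-sided permutation p = 0.457, adjusted 0.486). The ratio of Pyy to Ppy counts was 0.583, 0.545, 0.716 and 0.663 in Wfs1KO replicates 1 to 4, against 0.632, 0.444, 0.584 and 0.655 in WT replicates 1 to 4 (log2 difference 0.12, exact two-sided permutation p = 0.486, adjusted 0.486). In both ratios the genotypes overlapped.

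**Figure D3:**
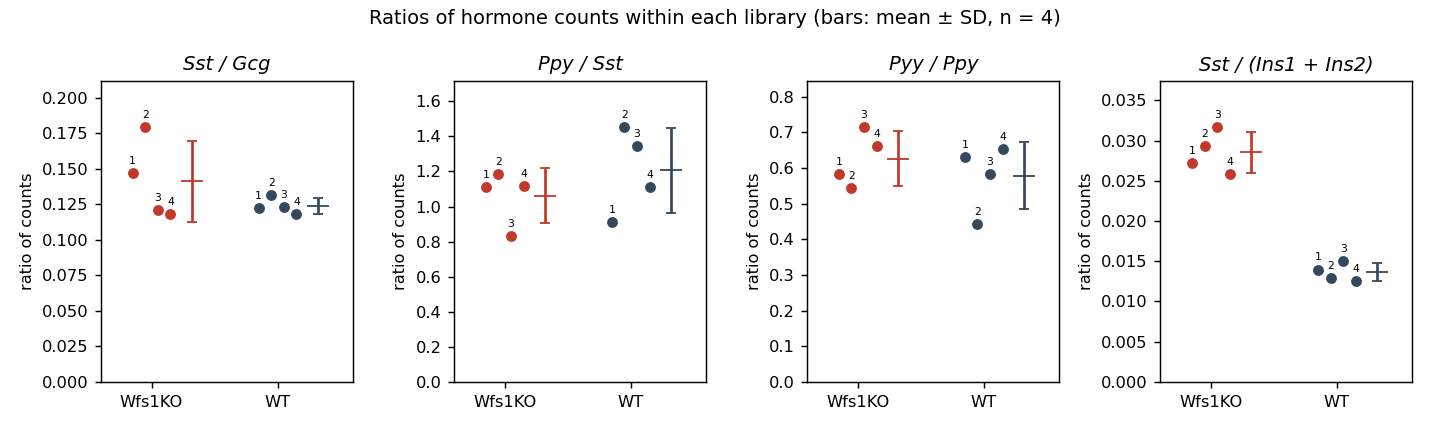
Ratios of hormone gene counts in each library (vertical axes start at 0), Wfs1KO left of WT, points numbered by replicate, bars mean ± SD with n = 4. The ratio of Sst to Ins1 and Ins2 averages 0.0285 in Wfs1KO and 0.0136 in WT islets without overlap, and the other 3 ratios overlap.

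Within genotypes the correlations between members were of both signs. After each genotype's mean was subtracted from log2 CPM, 11 of the 21 pairs of members correlated above 0 across the 8 libraries, and only as a description of these libraries. Ffar4 went with Sst (r = 0.77), with its neighbour Rbp4 (0.76) and with Hhex (0.63), while Pyy went with Sst (0.64) as well as with its neighbour Ppy (0.63). Ppy ran against Rbp4 (-0.62) and Hhex (-0.47), and Ghsr ran against Pyy (-0.56). The values of a pair come from the same libraries and share their depth, so they carry no test. Counting noise draws r toward 0, most for genes of few counts such as Ghsr, Ffar4 and Hhex.

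**Figure D4:**
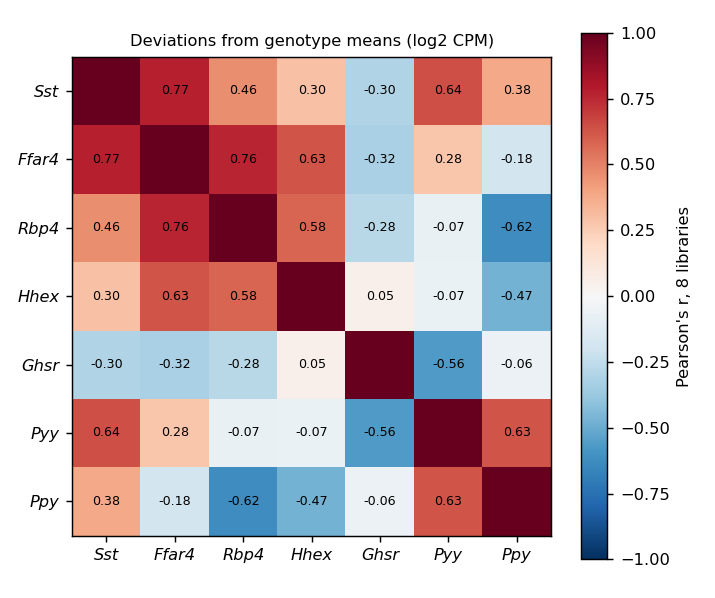
Pearson's r between members (rows and columns) of their deviations from genotype means in log2 CPM over 8 libraries, as colour and number. The highest values are 0.77 for Sst with Ffar4, 0.76 for Rbp4 with Ffar4 and 0.64 for Sst with Pyy, and the lowest is -0.62 for Rbp4 with Ppy.

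The genes closest in pattern to Sst, Ppy and Hhex were not other members. Of 11542 genes with at least 5 CPM, those most like Sst in the same deviations were Ogfod3 (r = 0.98), Ldhb (0.98), Ramp2 (0.98), Nprl2 (0.97) and Maged1 (0.97), while Ffar4 ranked 380. Those most like Ppy were Babam1 (0.98), Nle1 (0.97), Usp2 (0.96), Rnf113a1 (0.95) and Hgh1 (0.94), with Pyy at rank 865. Those most like Hhex were Zfp455 (0.96), Qpctl (0.95), Coro1c (0.94), Manf (0.93) and Zfp747 (0.93), with Ffar4 at rank 525. These are the highest of 11542 values of r over only 8 libraries, where some high values arise by chance. The names and ranks are given as likeness only and carry no test.

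Other genes reported as markers of delta or PP cells in mouse or human islets moved in both directions. In bulk islets the reads of such markers can also come from other cell types, and the part from delta or PP cells was not tested. Of 12 other delta cell markers 11 were tested, and 4 rose, 2 fell and 5 were not called, with a median log2 fold change of 0.40. Those that rose included Calb1, which encodes the calcium buffer calbindin (76.1 ± 4.47 CPM in Wfs1KO and 50.5 ± 4.81 CPM in WT islets, SD, n = 4 each, log2 fold change 0.60), the proteoglycan gene Spock3 (0.63) and the receptor phosphatase gene Ptprz1 (0.47). Those that fell were Frzb, which encodes a secreted WNT antagonist (372 ± 20.5 CPM in Wfs1KO and 454 ± 15.3 CPM in WT islets, log2 fold change -0.29), and the calcium-sensing receptor gene Casr (-0.21).

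The call of Casr (edgeR adjusted p = 0.0226) was lost without single libraries, namely without Wfs1KO replicate 1 or 2 or WT replicate 1 or 3 (0.0526 to 0.0810). The leptin receptor gene Lepr, chosen after its values were seen, had 12.5, 10.2, 4.33 and 3.61 CPM in Wfs1KO replicates 1 to 4, against 2.94, 3.52, 2.16 and 2.45 CPM in WT replicates 1 to 4. Every Wfs1KO library was above every WT library, those of replicates 1 and 2 by far the most, and the test was not passed (log2 fold change 1.48, SE 0.44, edgeR adjusted p = 0.0523).

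Of 8 other PP cell markers, known mainly from human islets, 1 rose, 2 fell and 5 were not called, with a median log2 fold change of 0.30. Etv1, an ETS transcription factor gene, rose (58.0 ± 4.42 CPM in Wfs1KO and 42.0 ± 1.20 CPM in WT islets, SD, n = 4 each, log2 fold change 0.46, edgeR adjusted p = 1.70e-04). Tm4sf4, which encodes a tetraspanin-like membrane protein and was the most abundant of this list, fell (349 ± 10.9 CPM in Wfs1KO and 469.9 ± 25.5 CPM in WT islets, log2 fold change -0.43). Slitrk6, a leucine-rich repeat transmembrane gene, fell as well (-0.32). Of the 19 tested markers of both lists together 5 rose, 4 fell and 10 were not called, where 10.4% of all tested genes rose and 8.49% fell.

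**Figure D5:**
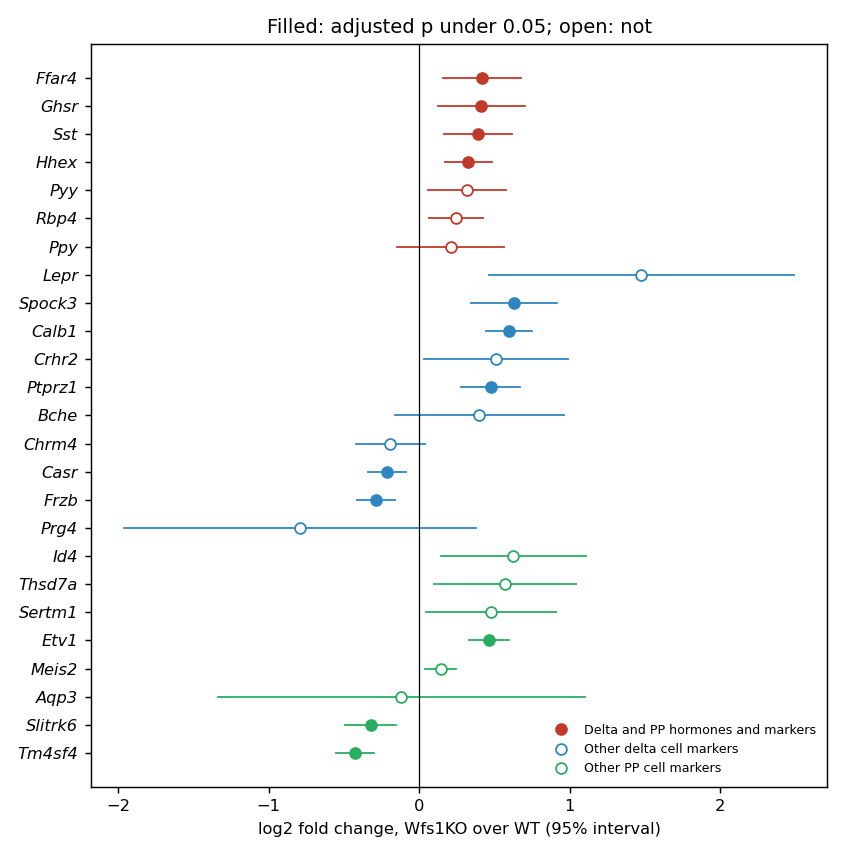
Log2 fold change of Wfs1KO over WT (horizontal axis) with its 95% interval for the 7 hormones and markers and for other delta and PP cell markers that were tested, filled where the edgeR adjusted p was under 0.05. The 7 lie between 0.21 and 0.42, while the other markers spread from Prg4 at -0.79 to Lepr at 1.48.

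The receptors that read somatostatin and the PP-fold peptides did not pass the test. Of 6 genes of the somatostatin family and its receptors 3 were tested and none was called. Sstr3 was the most abundant (421 ± 21.0 CPM in Wfs1KO and 449 ± 16.3 CPM in WT islets, SD, n = 4 each, log2 fold change -0.09, edgeR adjusted p = 0.322), while Sstr1 (0.37) and Sstr2 (0.30) had about 3 CPM, and Sstr4, Sstr5 and the somatostatin-related gene Cort were too low to test. Of 7 genes of the neuropeptide Y family, its receptors and the peptidase that trims PYY 3 were tested and none was called. Npy stood at 0.56 (edgeR adjusted p = 0.336) and the peptidase gene Dpp4 at -0.18 (0.184). The receptor gene Npy1r, at 2.41 CPM in Wfs1KO and 1.32 CPM in WT islets, stood at 0.88 (0.0617), close to the threshold. The PP receptor gene Npy4r was too low to test. Npy5r and Npy6r had 0 counts in every library.

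The genes of the ghrelin system had low counts. Of 4 other genes of the ghrelin system 3 were tested, 1 fell and none rose. Ghrl, which encodes ghrelin, had 5.68 ± 1.39 CPM in Wfs1KO and 3.38 ± 1.36 CPM in WT islets (SD, n = 4 each, log2 fold change 0.75, edgeR adjusted p = 0.0723). Mrap2, which encodes an accessory protein of melanocortin receptors that also modulates GHSR, fell (0.783 ± 0.273 CPM in Wfs1KO and 1.79 ± 0.599 CPM in WT islets, log2 fold change -1.18, edgeR adjusted p = 0.0289), with a call that was lost without Wfs1KO replicate 1 or 3 or WT replicate 1 or 4 (0.0528 to 0.131). Mboat4, the enzyme that acylates ghrelin, stood at -0.54 with a mean under 1 CPM in both genotypes.

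Among receptors for fatty acids and lipids, Ffar4 and Ffar2 rose while the other 3 tested fell. Ffar1, the beta cell receptor for long-chain fatty acids, fell to 23.0 ± 1.51 CPM in Wfs1KO, against 51.5 ± 3.22 CPM in WT islets (SD, n = 4 each, log2 fold change -1.16). Ffar3, a short-chain fatty acid receptor, fell to 8.74 ± 1.14 CPM in Wfs1KO, against 17.9 ± 1.55 CPM in WT islets (-1.04), and Gpr119, a receptor for lipid amides, fell by 0.49 on the log2 scale. Ffar2, the other short-chain fatty acid receptor, rose to 39.6 ± 1.81 CPM in Wfs1KO, against 28.4 ± 3.17 CPM in WT islets (0.48). All 4 of these held their calls without each library in turn.

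Partners of RBP4 were not called. Of 9 genes of retinol transport and storage 5 were tested, with a median log2 fold change of 0.06. Ttr, which encodes transthyretin, the plasma partner of RBP4, had 1008 ± 151 CPM in Wfs1KO and 1058 ± 42.5 CPM in WT islets (SD, n = 4 each, log2 fold change -0.07, edgeR adjusted p = 0.687). Of 7 genes of prohormone processing, which act in delta and PP cells as in other islet cells, 1 fell and 6 were not called. Pcsk1, a convertase gene, fell by 0.66 on the log2 scale, while Pcsk2 (-0.21, edgeR adjusted p = 0.0741) and Cpe (-0.08, 0.518), the most abundant of the list per kilobase, were not called.

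Genes next to the members gave no common direction. Beside Ffar4 and Rbp4, Cep55 stood at -0.65 (edgeR adjusted p = 0.298) and Pde6c was too low to test, and beside Hhex the kinesin gene Kif11 stood at -0.27 (0.293) and 1700122C19Rik was too low to test. Mpp2, the gene after Ppy, rose by 0.30 (0.0135) and Fndc3b, beside Ghsr, by 0.52 (3.37e-04). Nags, beside Pyy, stood at 1.17 (0.0768), Tnfsf10, beside Ghsr, at 0.18 (0.323), and Rtp4, beside Sst, at 0.17 (0.600), while Rtp2 was too low to test.

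Markers of some other islet cells moved in the same libraries, where 10.4% of all tested genes rose and 8.49% fell. Of 12 beta cell markers 10 fell and 1 rose, and their summed level was 111331 to 136469 CPM across Wfs1KO and 164585 to 210527 CPM across WT libraries. Of 14 endothelial markers 12 rose, with a summed level of 900.04 to 1056 CPM across Wfs1KO and 665 to 753 CPM across WT libraries. Of 14 stellate cell and pericyte markers 4 rose, with 366 to 458 CPM across Wfs1KO and 225 to 314 CPM across WT libraries. Of 10 Schwann cell and neuron markers 1 rose, with 155 to 164 CPM across Wfs1KO and 152 to 165 CPM across WT libraries. Of 13 tested acinar markers 1 rose and none fell, with 10578 to 72209 CPM across Wfs1KO and 33947 to 75706 CPM across WT libraries. Their median log2 fold change was -0.42, and only 1 of the 13 was above 0. Of 10 ductal markers 2 rose and 1 fell, with 764 to 853 CPM across Wfs1KO and 737 to 793 CPM across WT libraries, and of 10 macrophage markers none was called, with 204 to 523 CPM across Wfs1KO and 208 to 336 CPM across WT libraries. No marker of these lists had 0 counts in every library. Their part in the values of the 7 genes was not tested, except that with the acinar score as a covariate Sst (0.31, edgeR adjusted p = 0.0497) and Hhex (0.31, 0.0194) kept their calls while Ffar4 (0.34, 0.0749) and Ghsr (0.43, 0.0697) lost theirs.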

How the data were processed

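Poly(A) RNA of 8 islet samples, 4 Wfs1KO and 4 WT, was sequenced. The submitters' processing notes name bcl2fastq, STAR 2.6.0a, HOMER 4.11.1, DESeq2 and the mm10 build. The deposited values are raw exon counts of RefSeq genes with 1 entry for each gene, made by HOMER without a strand option, per the file headers. The table's 24537 genes included no unnamed entry. The authors also deposited a comparison whose log2 fold changes are of Wfs1KO over WT (sign checked against the counts), with unadjusted and adjusted p-values per the file headers. Its transformed log2 values per library, deposited beside it, were not used.

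Tests were run in R 4.3.3, mainly by edgeR 4.0.16 (filterByExpr by genotype with a minimum count of 10 and minimum total of 15, TMM, robust quasi-likelihood F-test), and DESeq2 1.42.0 and limma 3.58.1 as alternatives. The filter left 15733 genes, over which p-values were adjusted by Benjamini-Hochberg, and "rose" and "fell" are used at an adjusted p under 0.05. CPM use TMM-scaled library sizes, and the log2 CPM a prior count of 2. Intervals are 95% intervals of the fit. Ratios of counts were compared by exact two-sided permutation of log2 values. Replicates are separate islet samples, and whether each is 1 mouse is not stated in the labels, so p-values measure the spread between samples.

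The 7 members, the gene lists, the tests and the alternatives were chosen with earlier results of these data known. Named genes were the 7, called members and the most abundant tested member of each related list, Gcg, Ins1 and Ins2, adjacent genes, and the 5 genes most like Sst, Ppy and Hhex in pattern (at least 5 CPM). A gene that this rule takes is not reported here. Genotypes share replicate numbers, which come from the labels, and deviations of same-numbered libraries from genotype means correlated across genes at 0.153, 0.443, 0.269 and 0.188 for numbers 1 to 4. Differently numbered libraries of the other genotype ran from -0.539 to 0.507, and 2 of the 4 Wfs1KO libraries correlated best with their own number. Alternatives were other tests, filters and scalings, an acinar score (mean log2 CPM of the acinar markers) as a covariate, the replicate number as a block, replicates 1 and 2 against 3 and 4 as a block, other thresholds and each library left out.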

Additional observations from a re-analysis of the deposited data

Results flagged for a closer look

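A library far from the other 3 of its genotype was seen in 4 of the 52 groups of 4 examined, where chance gives about 1 in 20. Rbp4 in Wfs1KO replicate 3 stood at 109.7 CPM, above 89.8 to 92.7 CPM in the other Wfs1KO libraries, and without that library its log2 fold change was 0.17 (edgeR adjusted p = 0.170). Ghsr in WT replicate 4 stood at 3.88 CPM, below 5.40 to 5.62 CPM in the other WT libraries. Casr in WT replicate 1 stood at 194.6 CPM, above 171 to 175 CPM in the other WT libraries. Gpr119 in Wfs1KO replicate 2 stood at 10.98 CPM, below 14.5 to 15.1 CPM in the other Wfs1KO libraries.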

How the results depend on the processing

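No value of the 7 genes changed direction under the alternatives run, and Hhex kept its call under all of them. With edgeR's adjusted p under 0.01 in place of 0.05, 1 of the 7 and 1744 genes in all were called. At 0.05 with the acinar covariate, 2 of the 7 and 2630 genes in all were called. Ghsr lost its call with DESeq2 (log2 fold change 0.41, adjusted p = 0.0624), DESeq2 size factors in edgeR (0.40, 0.0509), no filter (0.42, 0.0523), the 20 most abundant genes left out of scaling (0.39, 0.0568), Ins1 and Ins2 left out of scaling (0.40, 0.0508), the acinar covariate (0.43, 0.0697) and the replicate block (0.42, 0.0554). Ffar4 lost its call with the acinar covariate (0.34, 0.0749). Rbp4 passed with DESeq2 (0.24, 0.0461) and the filter of 1 CPM (0.24, 0.0497). The causes were not tested. The replicate block, with the numbers pairing the samples, changed no other call of the 7, and gave Sst 0.38 (0.0439).

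Leaving out each library in turn gave log2 fold changes of 0.32 to 0.47 for Sst, 0.29 to 0.35 for Hhex, 0.17 to 0.30 for Rbp4, 0.30 to 0.47 for Ghsr, 0.34 to 0.49 for Ffar4, 0.07 to 0.27 for Ppy and 0.24 to 0.40 for Pyy, and from 1 to 4 of the 7 called. Over all genes these fits called 2387 to 2734, against 2970 in the main fit. The log2 difference of the ratio of Sst to Ins1 and Ins2 ran from 1.01 to 1.11, that of Sst to Gcg from 0.05 to 0.25, that of Ppy to Sst from -0.30 to -0.06 and that of Pyy to Ppy from 0.0010 to 0.19, so the last 3 each moved by over 1.5 times without some library. Of 270 values of other called genes under alternatives 249 kept their call and 21, those of Casr and Mrap2 among them, lost it, with none reversed. Depth was lowest for Ghsr and Ffar4, with 79 to 200 and 120 to 349 counts per library.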
